A study of Danio rerio with 3 samples.

Results

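The transcriptome of zebrafish larvae exposed to 5 μg/L BDE47, the lower of both concentrations of the study, was compared with that of larvae kept in DMSO vehicle. The comparison covered 17670 of the 21098 entries of the expression table, namely the mRNA entries with a full gene name and at least 10 normalized counts in either library. BDE47 is a tetrabrominated diphenyl ether, a flame retardant residue that is found widely in water and animals. Larvae of the Tuebingen strain were exposed from a few hours after fertilization, and whole larvae were sampled at 6 days post-fertilization (dpf). All of them, controls included, were kept in the same low percentage of DMSO as solvent, with a part of the medium renewed every day. RNA of a pool of larvae was sequenced once per condition, which gave 1 library for DMSO vehicle, 1 for 5 μg/L and 1 for 500 μg/L. No difference described here had a replicate check, and larvae within a pool could not be told apart.

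At 6 dpf the larva feeds, swims and sees, and it is defended by innate immunity alone, since lymphocytes mature later. Neutrophils and macrophages patrol its tissues, and the liver, the gut and the skin release complement, lectins and other proteins that coat or lyse microbes. Its liver also makes the plasma proteins, its skeleton is still mostly cartilage with a thin cover of bone, and its melanophores and retinal pigment epithelium hold the enzymes of melanin synthesis and of the retinoid (visual) cycle that regenerates the chromophore of the photoreceptors.

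A normalized count was the number of reads on a gene after the study scaled the libraries by TMM (trimmed mean of M-values). It was a whole multiple of a fixed step in each library, so the reads could be recovered. One read equalled 0.790 (DMSO vehicle), 1.09 (5 μg/L) and 1.25 (500 μg/L) normalized counts. Reads numbered 41474296, 30463582 and 27004647, respectively, and the genes compared had a median of 402 reads in DMSO vehicle and 290 at 5 μg/L. The least abundant genes inside the limit had 13 reads in DMSO vehicle or 10 reads at 5 μg/L, and genes just outside it had at most 12 and 9. Fold change (FC) was the normalized counts at 5 μg/L divided by those in DMSO vehicle, so that a value below 1 was lower at 5 μg/L. Its 95% confidence interval (CI) was an exact Clopper-Pearson interval on the share of reads, and it covered counting error only, since reads carried no molecular identifiers and larvae were pooled. A gene was called with an FC of at least 2 or at most 0.5. Values at 500 μg/L are given beside them, and that library was compared with the same DMSO vehicle library.

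Each of the major organs examined had a marker that was detected in both libraries. The fast muscle gene myhz1 had an FC of 1.03, the lens gene cryaa 0.949, the skin keratin krt4 0.961, the trypsin gene try of the exocrine pancreas 1.08, the myelin gene mbp 1.2 and the cone transducin gene gnat2 1.21. The liver gene fabp10a had 43714 normalized counts in DMSO vehicle and 36596 at 5 μg/L, an FC of 0.837. The other liver marker, tfa, had 56022 and 39484, an FC of 0.705. Embryonic erythrocytes were represented by hbae3, with an FC of 1.07, while the adult-type globin hbaa1 had 6 reads in DMSO vehicle and 0 in both exposed libraries. A further globin marker, ba1 (RefSeq hbba1), had 0 reads in every library.

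At 5 μg/L 516 genes were called, 168 of them higher and 348 lower. They made up 2.92% of the 17670 genes, with 0.951% called higher and 1.97% called lower. The genes as a whole were centred, with a median log2 FC of 0.01 (1 added to each value) and 48.8% of genes below 0, and the 5th and 95th percentiles of FC were 0.645 and 1.40. Most calls rested on few reads. In the library with the higher value the genes called higher had a median of 19 reads and those called lower 35, compared with 402 for all genes. The CI left out 1 for 131 genes called higher and 275 called lower, and included it for 110. Over all genes, called or not, it left out 1 for 6942 (39.3%), on either side.

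**Figure D1:**
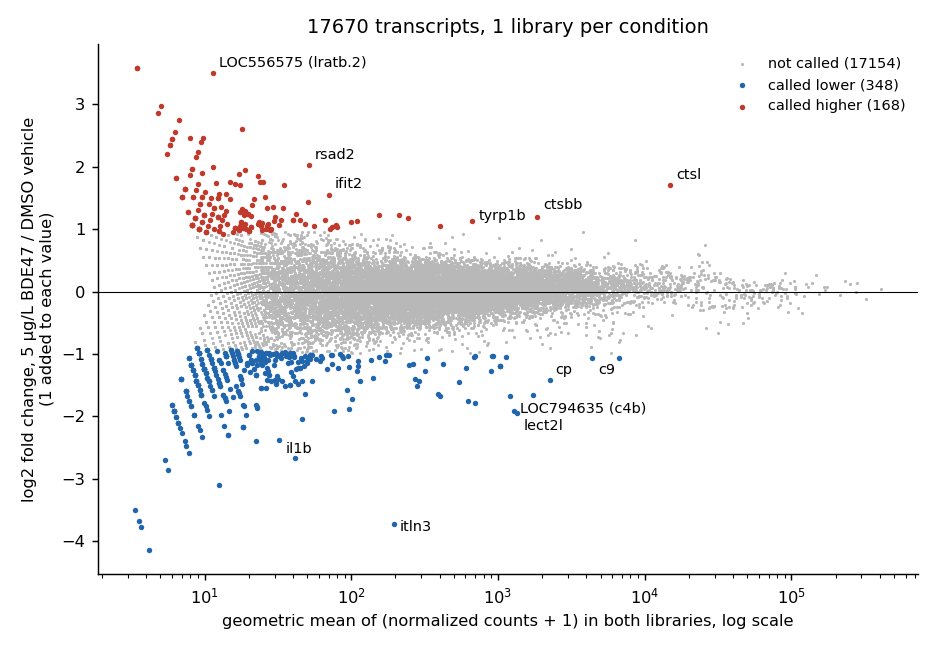
Log2 FC (5 μg/L BDE47 over DMSO vehicle, 1 added to each value) on the y axis against the geometric mean of both normalized counts on a log x axis; each point is 1 of 17670 genes, red called higher, blue called lower and grey not called. The spread was widest at low counts, and at high counts the genes called lower, among them lect2l, LOC794635, cp and c9, outnumbered those called higher, among them ctsl, ctsbb and tyrp1b.

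The plot of FC against abundance showed where calls fell. Of the 2569 genes with 10 to 50 normalized counts in the higher library, 5.53% were called higher and 9.65% lower. Of the 9136 genes with 100 to 1000 normalized counts these shares were 0.153% and 0.438%, and of the 4154 genes above that, 2 genes were called higher and 16 lower. The excess of lower calls thus held in every abundance class. The DMSO vehicle library was also the deeper of both, and the part of depth in this excess was not tested. With calls limited to at least 100 normalized counts, 72 genes were called, 16 higher and 56 lower.

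**Figure D2:**
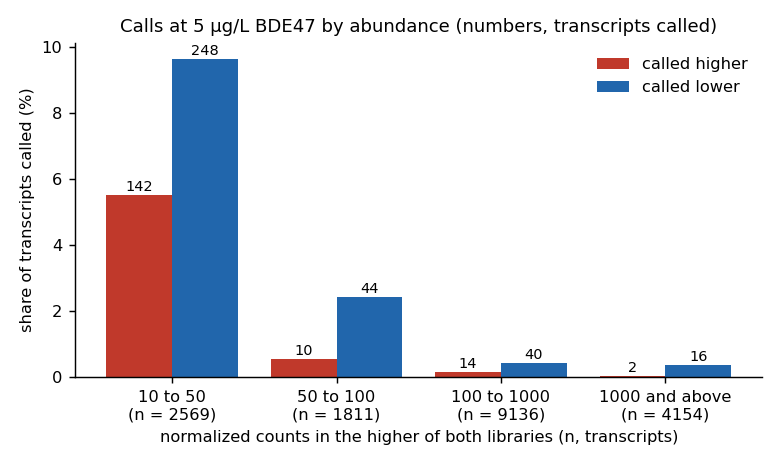
Share of genes called (y axis, percent) by normalized counts in the higher of both libraries (x axis, 4 classes, n genes in each), red for called higher and blue for called lower, with the number of genes above each bar. In all 4 classes more genes were called lower than higher, and the share called dropped from 9.65% lower in the class of fewest counts to 0.385% in the class of most counts.

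The genes lowest at 5 μg/L included several of innate defence. The study reported that DMSO vehicle mainly induced immune responses, compared with a blank control that is not part of this comparison. All FCs here rest on that 1 DMSO vehicle library. Its part in the lower values of immune genes was not tested. Among genes with at least 100 normalized counts the smallest FC belonged to itln3, an intelectin, a lectin that binds microbial sugars. It had 708 (DMSO vehicle), 52.5 (5 μg/L) and 1074 (500 μg/L) normalized counts, an FC of 0.0741 (CI 0.0542 to 0.0991). LOC795897, which the table describes as similar to a toxin-binding protein of pufferfish, had 103, 15.3 and 162 normalized counts in the same order and an FC of 0.149. Both genes were low in the 5 μg/L library only. The leukocyte chemotactic factor gene lect2l (RefSeq lect2.1) had 2643, 690 and 4767 normalized counts, an FC of 0.261 (CI 0.239 to 0.284). The galectin gene lgals1l1, a galactose-binding lectin, had 3051, 970 and 1750 normalized counts and an FC of 0.318. LOC797571 (RefSeq olmf4l1), an olfactomedin 4-like gene, had 1307, 376 and 1738, an FC of 0.288. Of these 5 genes, lgals1l1 was the exception in that it was below DMSO vehicle in both exposed libraries. A second lectin-type entry, LOC100002476, a type-2 ice-structuring protein-like gene, had 146, 38.3 and 84.9 normalized counts and an FC of 0.262. The intelectin itln1 was called on 43 reads in DMSO vehicle and 8 at 5 μg/L, an FC of 0.257 (CI 0.104 to 0.554). It was under the minimum at 5 μg/L, so the limit fixed its direction. The list of intelectins and acute phase genes, proteins that the liver or the mucosa releases in infection, had 24 members, of which 21 were below DMSO vehicle, 6 were called lower and none higher. Its median log2 FC was -0.36, against 0.01 for all genes. By comparison, 1.97% of all genes were called lower and 0.951% higher.

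Genes of neutrophils and macrophages were lower as a group. Of 40 genes on that list 35 were below DMSO vehicle, 6 were called lower and 1 higher, and the median log2 FC was -0.27. The shares over all genes were 1.97% called lower and 0.951% called higher. The macrophage gene mfap4 (RefSeq mfap4.1) had 686 (DMSO vehicle), 220 (5 μg/L) and 884 (500 μg/L) normalized counts, an FC of 0.320 (CI 0.273 to 0.374). The NADPH oxidase gene cybb, whose product makes the oxidative burst of phagocytes, had 474, 175 and 503 normalized counts and an FC of 0.369 (CI 0.308 to 0.440). LOC571584 (RefSeq marco), a scavenger receptor of macrophages, had 444, 167 and 670, an FC of 0.377. In each of these 3 genes the 5 μg/L library was below both others. The granulin gene grna had an FC of 0.438, and card9, an adaptor that carries signals from fungal lectin receptors, had 228, 86.4 and 315 normalized counts and an FC of 0.378. The same order was seen for the myeloperoxidase gene mpx of neutrophils, with 753, 421 and 1275 normalized counts and an FC of 0.559 (CI 0.495 to 0.630), which was not called.

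Other leukocyte genes stood closer to DMSO vehicle. The lysozyme gene lyz had 2001 normalized counts in DMSO vehicle and 1600 at 5 μg/L (FC 0.800), and the macrophage perforin gene mpeg1 had 855 and 646 (FC 0.755). The pan-leukocyte phosphatase ptprc had an FC of 0.870 (CI 0.724 to 1.04), the macrophage receptor csf1ra 0.901 and the neutrophil protease npsn 0.982. The antigen presentation gene iclp1 (RefSeq cd74a) had 273, 368 and 99.9 normalized counts and an FC of 1.35 (CI 1.16 to 1.57). The only gene of the list called higher was the adaptor tyrobp, with 22 reads in DMSO vehicle and 35 at 5 μg/L. Summed over the 40 genes, the list had 64378 (DMSO vehicle), 55465 (5 μg/L) and 114303 (500 μg/L) normalized counts. In whole larvae, fewer cells of a type and less RNA per cell cannot be told apart. The genes itln1, cybb, LOC571584, grna, card9, ptprc, csf1ra, npsn and tyrobp were named after their values were seen.

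Inflammation genes, which neutrophils, macrophages and epithelia switch on, included 5 called lower (12.8% of their list, against 1.97% of all genes). The cytokine il1b, interleukin-1 beta, had 72.7 (DMSO vehicle), 13.1 (5 μg/L) and 761 (500 μg/L) normalized counts, an FC of 0.180 (CI 0.0899 to 0.331) on 92 and 12 reads. The enzyme gene irg1 (RefSeq acod1), which makes itaconate in activated macrophages, had 184, 49.2 and 224 normalized counts, an FC of 0.267 (CI 0.190 to 0.369). Its relative irg1l, known from epithelium, had 889, 325 and 1434 and an FC of 0.365. Thus all 3 were lowest at 5 μg/L, and il1b was far above DMSO vehicle at 500 μg/L. The gelatinase mmp9 had 439, 251 and 5094 normalized counts, an FC of 0.573 (CI 0.489 to 0.670), and cebpb, a transcription factor of the acute phase, had 1503, 856 and 8702, an FC of 0.570. Of the 39 genes on the list of cytokines, chemokines and inflammation none was called higher, 25 were below DMSO vehicle, and they had a median log2 FC of -0.18. Outside the list, the entry ccl1 (RefSeq ccl27a), a chemokine, was called higher with 24 and 41 reads and an FC of 2.36 (CI 1.39 to 4.09). The cytokine genes lta, with 2 and 12 reads, and LOC798119 (RefSeq tnfsf14), with 9 and 16, were called higher at 8.30 (CI 1.85 to 76.3) and 2.46 (CI 1.02 to 6.31). Both were under the minimum in DMSO vehicle, so the limit fixed this direction. The defensin gene defbl3 was also called higher, with 16 and 41 reads and an FC of 3.54 (CI 1.95 to 6.77). These 4 genes were named after their values were seen. The chemokine cxcl12a had the FC 1.31, and the tumour necrosis factor gene tnfb 1.25 (CI 0.855 to 1.82).

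Complement, the plasma cascade that opsonizes and lyses microbes, was the list with the lowest median. Of its 23 genes 22 were below DMSO vehicle, the CI lay wholly below 1 for 20, and the median log2 FC was -0.42. Over all genes the CI left out 1, on either side, for 39.3%. On this list 6 genes were called lower (26.1%, against 1.97% of all genes) and none higher. LOC794635 (RefSeq c4b), the component that starts the classical and lectin convertase, had 2512 (DMSO vehicle), 661 (5 μg/L) and 2503 (500 μg/L) normalized counts, an FC of 0.263 (CI 0.241 to 0.287). The central component was represented by c3b (RefSeq c3a.2), with 2159, 674 and 457 normalized counts and an FC of 0.312, and by c3c (RefSeq c3a.3), with 9614, 4624 and 2823 and an FC of 0.481. The pore-forming c9 had 6357, 3026 and 2889, an FC of 0.476 (CI 0.456 to 0.497). Whereas c4b was back at the level of DMSO vehicle at 500 μg/L, both c3 genes and c9 were below it in both exposed libraries. The alternative pathway protease cfb had 8268, 4150 and 9181 normalized counts and an FC of 0.502, just short of a call. The initiator subunit c1qa was called at 0.441 on 69 and 22 reads, while c1qb and c1qc, subunits of the same molecule, had FCs of 1.04 (CI 0.689 to 1.55) and 0.922 (CI 0.587 to 1.43). Summed over the list there were 59152 (DMSO vehicle), 36934 (5 μg/L) and 48534 (500 μg/L) normalized counts. The immune lists shared called genes, so they were not separate groups. The gene c3b was also on the intelectin and acute phase list. The neutrophil and macrophage list shared lect2l with the intelectin list and il1b with the inflammation list. The genes c3c, c9, cfb, c1qb and c1qc were named after their values were seen. Entries of the c3 family share sequence, and how reads were divided between them was not given in the sources used here.

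**Figure D3:**
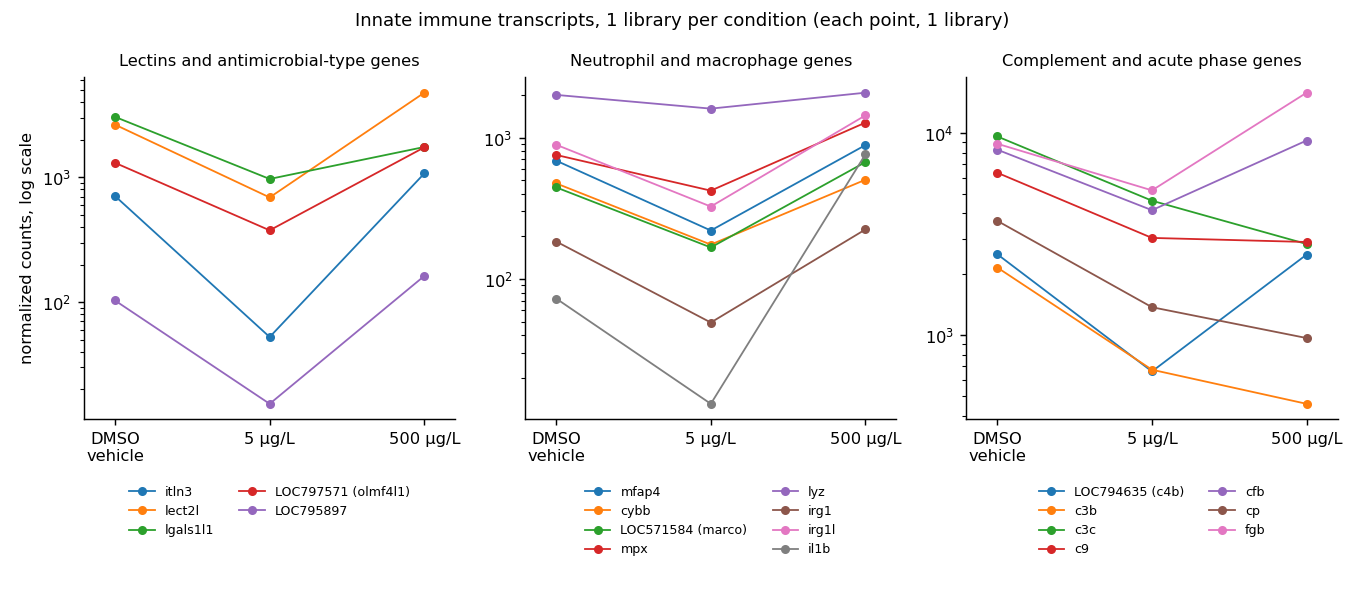
Normalized counts (y axis, log scale) in the DMSO vehicle, 5 μg/L and 500 μg/L libraries (x axis), each point 1 library, lines joining the points of 1 gene, for lectins and antimicrobial-type genes, neutrophil and macrophage genes, and complement and acute phase genes. The first group also holds the olfactomedin-like LOC797571 and LOC795897, which is described as similar to a toxin-binding protein. Neither is labelled as a lectin or as antimicrobial. Every gene drawn was lower at 5 μg/L than in DMSO vehicle, from 708 to 52.5 for itln3 to 2001 to 1600 for lyz, and c3b, c3c, c9 and cp were lower still at 500 μg/L.

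Other plasma proteins and enzymes of the liver did not share one direction. The plot of innate immune genes shows cp and fgb, both lower at 5 μg/L. Ceruloplasmin, cp, a copper-carrying ferroxidase, had 3675 (DMSO vehicle), 1374 (5 μg/L) and 967 (500 μg/L) normalized counts, an FC of 0.374 (CI 0.351 to 0.398). LOC564060 (RefSeq serpina7), a serpin-family plasma protein named for the thyroxine-binding globulin of mammals, had 1141, 337 and 1966, an FC of 0.295 (CI 0.260 to 0.334). The fibrinogen chains fgb and fga had FCs of 0.588 and 0.631, and the third chain, fgg, had 0.875. On the higher side stood tdo2b, the first enzyme of tryptophan breakdown, with 2749, 5323 and 10401 normalized counts and an FC of 1.94 (CI 1.85 to 2.02), and agxtb, an aminotransferase of glyoxylate metabolism, with 19920, 33435 and 36169 and an FC of 1.68. Both enzymes were higher in each exposed library, and neither reached a call at 5 μg/L. Over the 34 liver plasma carrier and enzyme genes 19 were above and 15 below DMSO vehicle, with a median log2 FC of 0.07. None of the 28 coagulation and fibrinolysis genes was called, against 2.92% of all genes. Of them 20 were below DMSO vehicle, and the median was -0.13. The gene fgg was named after its values were seen.

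A few interferon-stimulated genes were higher at 5 μg/L. The antiviral enzyme rsad2 (viperin) had 24.5 (DMSO vehicle), 103 (5 μg/L) and 21.2 (500 μg/L) normalized counts, an FC of 4.19 (CI 2.77 to 6.51) on 31 and 94 reads. The entry ifit2 (RefSeq ifit15), of a family that binds viral RNA, had 40.3, 119 and 26.2 normalized counts and an FC of 2.96 (CI 2.1 to 4.21). Both were high in the 5 μg/L library alone. The transcription factor stat1b had 20.6, 53.6 and 104 normalized counts and an FC of 2.61 (CI 1.59 to 4.37), and isg15, a ubiquitin-like protein, had 91.7, 166 and 843 and an FC of 1.81 without a call. Not all genes of the response followed. The paralog stat1a had an FC of 1.06, the peptide transporter gene LOC100333043 (RefSeq tap1) 0.659, and the antiviral GTPase mxc 0.574 with 149, 85.3 and 58.7 normalized counts. A further GTPase entry outside the list, LOC561067 (RefSeq mxf), was called lower with 161, 53.6 and 160 and an FC of 0.332 (CI 0.238 to 0.456). Over the 40 genes of the list 19 were above and 21 below DMSO vehicle, and the median log2 FC was -0.03. Of them 3 were called higher (7.50%, against 0.951% of all genes) and none lower. The genes isg15, stat1a and LOC561067 were named after their values were seen.

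Genes of the absorptive gut were slightly lower as a group, with exceptions among the abundant ones. Of 37 intestinal brush border and absorption genes 30 were below DMSO vehicle, with a median log2 FC of -0.27, and 2 were called lower (5.41%, against 1.97% of all genes). The disulfide isomerase agr2, which folds mucins in goblet cells and also belongs to the skin list, had 1292 (DMSO vehicle), 631 (5 μg/L) and 1794 (500 μg/L) normalized counts, an FC of 0.488 (CI 0.443 to 0.537). The chloride and bicarbonate exchanger slc26a3 had 41.1, 10.9 and 159, an FC of 0.266 (CI 0.121 to 0.529) on 52 and 10 reads. Both genes were low at 5 μg/L only. The bile acid transporter slc10a2 had an FC of 0.686, the sugar hydrolase treh 0.629 and the glucose transporter slc5a1 0.701, whereas the fatty acid carrier fabp2 had 14339, 16357 and 10597 normalized counts and an FC of 1.14, the bile acid carrier fabp6 1.31 and the vitamin B12 receptor cubn 1.35. The selenium-dependent peroxidase gpx1b, on the antioxidant list, had 1618, 783 and 2972 normalized counts and was called lower at 0.484 (CI 0.444 to 0.527). By comparison, the exocrine pancreas showed none of this: 16 of its 19 digestive enzyme genes were above DMSO vehicle, none was called, and the median log2 FC was 0.12. The genes slc26a3 and slc5a1 were named after their values were seen.

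Collagen genes were lower as a group at 5 μg/L, and cartilage matrix genes were not. The type I collagen chains, the main fibre of bone and dermis, were col1a1a, with 11129 (DMSO vehicle), 6912 (5 μg/L) and 3991 (500 μg/L) normalized counts and an FC of 0.621 (CI 0.603 to 0.640), col1a1b with an FC of 0.575, and col1a2 with 7393, 4674 and 2765 and an FC of 0.632. All 3 chains were lowest at 500 μg/L. The fibril-regulating chain gene col5a3b had 993, 484 and 280 normalized counts and was called at 0.488 (CI 0.437 to 0.544), as was LOC100331704 (RefSeq col14a1b) at 0.478 (CI 0.406 to 0.560). The hemidesmosome collagen col17a1a of the epidermis had 5817, 3146 and 3253, an FC of 0.541, and the collagen chaperone hsp47 (RefSeq serpinh1b) had 2674, 1495 and 3227, an FC of 0.559. Of 46 collagen genes 35 were below DMSO vehicle and 28 had a CI wholly below 1, with a median log2 FC of -0.25. Over all genes the CI left out 1, on either side, for 39.3%.

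Within cartilage 22 of 25 matrix genes were above DMSO vehicle, none was called, and the median log2 FC was 0.22. This list shares 8 collagens with the list above. The cartilage collagen col2a1a had 17437 (DMSO vehicle), 17647 (5 μg/L) and 7096 (500 μg/L) normalized counts, an FC of 1.01 (CI 0.992 to 1.03). The matrilin matn1 had 5911, 8045 and 3605, an FC of 1.36 (CI 1.32 to 1.41), and the aggrecan gene LOC559593 (RefSeq acanb), the main proteoglycan of cartilage, had 1362, 1961 and 1202 and an FC of 1.44. Both were highest in the 5 μg/L library. The leucine-rich matrix protein chad had an FC of 1.38, and the hypertrophic cartilage collagen col10a1, with 4933, 6503 and 2909 normalized counts, had 1.32. The cartilage regulators sox9a and sox9b were on the other side, with FCs of 0.847 (CI 0.757 to 0.947) and 0.774 (CI 0.662 to 0.903). Of the 32 bone genes 20 were above DMSO vehicle, with a median log2 FC of 0.11. On this list 2 were called, both lower and on few reads (6.25%, against 1.97% of all genes called lower). The mineralization phosphatase phospho1 had 91 reads in DMSO vehicle and 30 at 5 μg/L, an FC of 0.456 (CI 0.291 to 0.696), and the osteoblast regulator runx2a had 18 and 3, an FC of 0.231 (CI 0.0435 to 0.790). At 5 μg/L runx2a was under the minimum, so the limit fixed its direction. The osteoblast marker sp7 had 26 (DMSO vehicle), 26 (5 μg/L) and 8 (500 μg/L) reads, an FC of 1.38 (CI 0.772 to 2.48). The parathyroid hormone gene pth1a, 285 reads at 500 μg/L, had 4 reads in DMSO vehicle and 7 at 5 μg/L and was under the limit of abundance, and the calcitonin gene calca had an FC of 1.26. The genes runx2a and col1a2 were named after their values were seen.

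Genes of DNA replication and cell division were lower together, though none was called. Of 55 members 49 were below DMSO vehicle, 26 had a CI wholly below 1, and the median log2 FC was -0.27, which corresponds to an FC of 0.828. Over all genes 2.92% were called, and the CI left out 1, on either side, for 39.3%. The spindle checkpoint gene bub3 had 299 (DMSO vehicle), 159 (5 μg/L) and 160 (500 μg/L) normalized counts, an FC of 0.531 (CI 0.435 to 0.644). The helicase subunit mcm3 had 205, 113 and 84.9, an FC of 0.550 (CI 0.433 to 0.694), and tyms, which makes thymidylate, had an FC of 0.587. The sliding clamp pcna, named after its values were seen, had 3539, 2753 and 2555 normalized counts and an FC of 0.778 (CI 0.740 to 0.817). These genes were below DMSO vehicle in both exposed libraries. On the higher side the licensing inhibitor gmnn had an FC of 1.22 and the spindle protein nusap1 1.17. Cytosolic ribosomal protein genes, an indicator list for the translation machinery, had 47 of 70 below DMSO vehicle, a median of -0.07 and no call.

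Pigment cell genes were higher as a group. Of 36 members 28 were above DMSO vehicle, and the median log2 FC was 0.25. On this list 2 genes were called higher (5.56%, against 0.951% of all genes) and none lower. The melanin synthesis enzyme tyrp1b had 451 (DMSO vehicle), 990 (5 μg/L) and 912 (500 μg/L) normalized counts, an FC of 2.19 (CI 1.97 to 2.44). A separate entry, tyrp1, which RefSeq also assigns to tyrp1b, had 64.0, 97.3 and 109 and an FC of 1.52, so the division of reads between both entries is uncertain. The melanosome fibril protein pmela had 749, 1362 and 1868 normalized counts and an FC of 1.82 (CI 1.67 to 1.98), and dct, the enzyme between tyrosinase and tyrp1, had 113, 203 and 347 and an FC of 1.80 (CI 1.44 to 2.25). All of these melanin genes were above DMSO vehicle in each exposed library. The master regulator of melanophores, mitfa, was called on 9 reads in DMSO vehicle, under the minimum there, and 24 at 5 μg/L, an FC of 3.69 (CI 1.66 to 9.02). The limit fixed the direction of mitfa, which leaves tyrp1b as the other call of the list. The purine synthesis gene gart, used by iridophores and by dividing cells, had an FC of 0.708, and the neural crest regulators sox10 and pax7a had 0.824 and 0.787. The genes mitfa and tyrp1 were named after their values were seen.

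In the retinoid cycle 3 genes were called higher (5.26% of the list, against 0.951% of all genes), and all 3 were higher still at 500 μg/L. The isomerase rpe65a of the retinal pigment epithelium, which converts the retinyl ester to 11-cis retinol, had 99.6 (DMSO vehicle), 235 (5 μg/L) and 768 (500 μg/L) normalized counts, an FC of 2.36 (CI 1.89 to 2.96). The retinaldehyde-binding protein rlbp1b had 281, 580 and 869, an FC of 2.07 (CI 1.81 to 2.37). LOC556575 (RefSeq lratb.2), a lecithin retinol acyltransferase, had 3 (DMSO vehicle), 34 (5 μg/L) and 82 (500 μg/L) reads, an FC of 15.7 with a wide CI of 4.93 to 79.8. Its value in DMSO vehicle was under the minimum, so the limit fixed its direction. The retinol dehydrogenase LOC555864 (RefSeq rdh20), outside that list, was also called, with 9 and 18 reads and an FC of 2.77 (CI 1.18 to 6.99). It too was under the minimum in DMSO vehicle, with its direction fixed by the limit. The related enzymes rdh5, rdh12l and rdh10b had FCs of 1.39, 1.29 and 1.21. The nuclear receptor rxrab was called lower, with 53, 26.2 and 94.9 normalized counts and an FC of 0.495 (CI 0.297 to 0.800). The list as a whole was balanced, since 32 of 57 genes were above DMSO vehicle and the median log2 FC was 0.01. The paralog rlbp1a had 1596 normalized counts in DMSO vehicle and 1611 at 5 μg/L, an FC of 1.01 (CI 0.944 to 1.08). The genes LOC556575 and rlbp1a were named after their values were seen.

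Photoreceptor genes differed little. Of 50 phototransduction genes 37 were above DMSO vehicle and 1 was called lower (2.00%, against 1.97% of all genes). It was the red cone opsin opn1lw1, with 223 (DMSO vehicle), 107 (5 μg/L) and 199 (500 μg/L) normalized counts and an FC of 0.481 (CI 0.378 to 0.607). The rod opsin rho had 58956, 44131 and 40251 normalized counts and an FC of 0.749, and the ultraviolet cone opsin opn1sw1 had 72288, 79480 and 14324 and an FC of 1.1 (CI 1.09 to 1.11). The cone arrestin arr3a had an FC of 1.38 and the cone opsin kinase grk7b 1.47 (CI 1.22 to 1.79). Thus rho was below DMSO vehicle in both exposed libraries, and opn1sw1 was low at 500 μg/L only. The photoreceptor regulator crx had an FC of 0.973 (CI 0.925 to 1.02) and the eye field gene rx2 0.917 (CI 0.761 to 1.1), with 230, 211 and 42.5 normalized counts. Among 49 lens genes 33 were above DMSO vehicle, and the median log2 FC was 0.04. On this list 2 genes were called lower (4.08%, against 1.97% of all genes) and none higher. They were the crystallin cryba1a with 126, 60.1 and 87.4 normalized counts and an FC of 0.475 (CI 0.343 to 0.650), and crygm3 on 14 and 2 reads (FC 0.198). At 5 μg/L crygm3 was under the minimum, so the limit fixed its direction. The gene crygm3 was named after its values were seen.

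The best counted genes called higher were cathepsins, proteases of the lysosome. The entry ctsl (RefSeq ctslb) had 8264 (DMSO vehicle), 26873 (5 μg/L) and 10055 (500 μg/L) normalized counts, an FC of 3.25 (CI 3.18 to 3.33) on 10455 and 24583 reads. The cathepsin B gene ctsbb had 1218, 2807 and 695, an FC of 2.3 (CI 2.16 to 2.46). Both were highest at 5 μg/L, and they were the only genes with at least 1000 normalized counts that were called higher. The aminopeptidase ctsh had 1465, 2609 and 1983 normalized counts and an FC of 1.78 (CI 1.68 to 1.89). The asparagine endopeptidase lgmn, outside the list, had 18791, 28498 and 33918 and an FC of 1.52, and the abundant paralog ctsl1a (RefSeq ctsla) had 33336, 38296 and 87005 and an FC of 1.15 (CI 1.13 to 1.17). Lower values belonged to ctssa and ctssb, cathepsin S genes of antigen-presenting cells, with FCs of 0.798 (CI 0.592 to 1.07) and 0.880 (CI 0.826 to 0.936). Of 16 cathepsin genes 11 were above DMSO vehicle, and the median log2 FC was 0.28. On this list 2 genes were called higher (12.5%, against 0.951% of all genes) and none lower. A further low-count entry of RefSeq ctslb was not among the genes compared, and reads shared between cathepsin L copies are uncertain. The genes lgmn and ctsl1a were named after their values were seen.

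**Figure D4:**
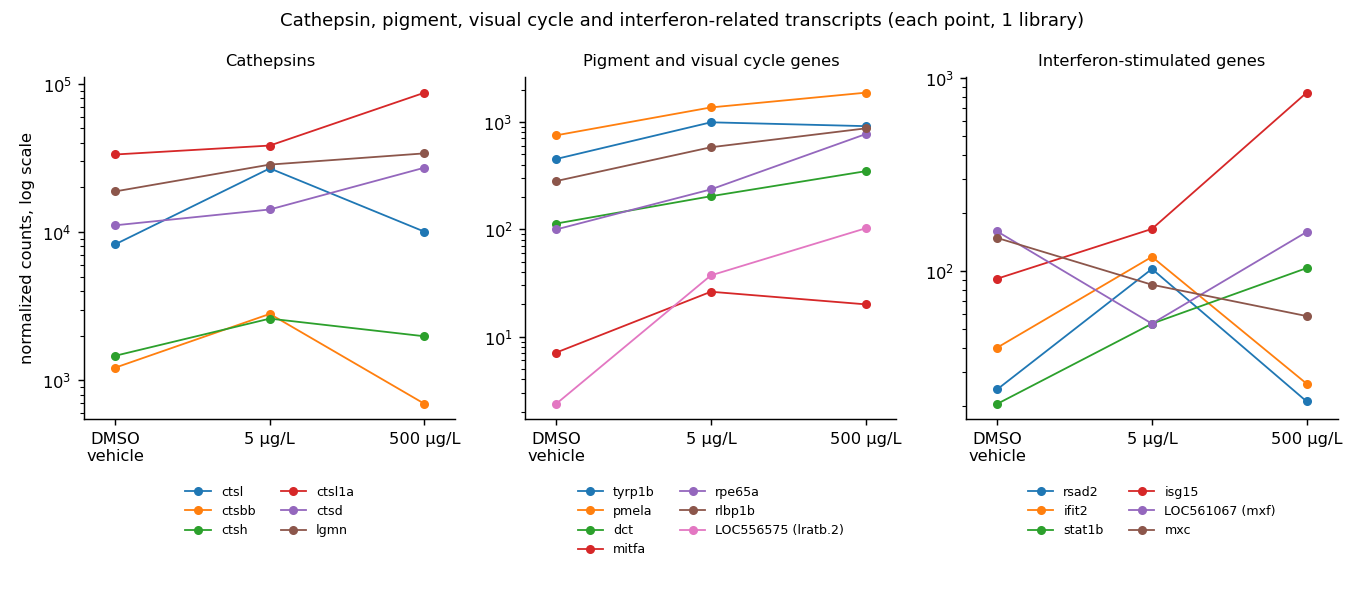
Normalized counts (y axis, log scale) in the DMSO vehicle, 5 μg/L and 500 μg/L libraries (x axis), each point 1 library, lines joining the points of 1 gene, for cathepsins, pigment and visual cycle genes, and interferon-related genes. The genes ctsl, ctsbb, rsad2 and ifit2 peaked at 5 μg/L, rpe65a, rlbp1b, pmela and dct were highest at 500 μg/L, and LOC561067 and mxc were lower at 5 μg/L than in DMSO vehicle.

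The plot of cathepsin, pigment and interferon genes separates 2 patterns among the higher genes, a value that peaked at 5 μg/L and a value that was higher again at 500 μg/L. A few regulators named from the glucocorticoid response, fatty acid and hypoxia lists had the second pattern with small FCs. The cochaperone fkbp5, a classical target of the glucocorticoid receptor, had 1363 (DMSO vehicle), 2151 (5 μg/L) and 11758 (500 μg/L) normalized counts, an FC of 1.58 (CI 1.48 to 1.68), and the transcription factor klf9 had 2486, 3992 and 9553, an FC of 1.61 (CI 1.53 to 1.68). The kinase pdk2, which limits pyruvate oxidation, had 19120, 28533 and 83314 and an FC of 1.49, and the glycolytic regulator pfkfb4l had 1979, 3069 and 8495 and an FC of 1.55. Each of these was above DMSO vehicle in both exposed libraries and was not called at 5 μg/L. Of 20 glucocorticoid response genes 13 were above DMSO vehicle, with a median log2 FC of 0.12, and of 44 glucose metabolism genes 34 were above, with a median of 0.17, compared with 0.09 for the same genes at 500 μg/L. The only call on both lists was the glucose-6-phosphatase g6pcb, on 11 reads in DMSO vehicle, under the minimum there, and 28 at 5 μg/L (FC 3.52, CI 1.70 to 7.84). The limit fixed the direction of g6pcb, which made up 2.27% of the glucose metabolism genes, against 0.951% of all genes called higher. Its better counted paralog g6pca had 828, 1164 and 1775 normalized counts and an FC of 1.41. Glucokinase, gck, had an FC of 0.627 (CI 0.429 to 0.905) and the liver pyruvate kinase pklr 0.763. The gene g6pcb was named after its values were seen.

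Lists of foreign compound metabolism and of cellular stress had median log2 FCs from -0.19, for the aryl hydrocarbon receptor response, to 0.09, for the p53 response. The aryl hydrocarbon receptor target cyp1a, a monooxygenase that dioxin-like compounds induce, had 2522 (DMSO vehicle), 2551 (5 μg/L) and 4251 (500 μg/L) normalized counts, an FC of 1.01 (CI 0.959 to 1.07). None of the 15 genes of that receptor's list was called, and the quinone reductase nqo1 had an FC of 1.06. Of 70 cytochrome P450 genes outside family 1, 4 were called higher and 3 lower with a median log2 FC of 0.00. The 10% called there compares with 2.92% of all genes. Among genes with 10 to 50 normalized counts, however, 5.53% were called higher and 9.65% lower. Of the P450 genes called higher, cyp2x6 (9 and 14 reads), cyp2aa9 (2 and 11) and cyp11a1 passed the minimum through the 5 μg/L library alone. The best counted of the called P450 genes was cyp2k6, with 72.7, 161 and 738 normalized counts and an FC of 2.21 (CI 1.69 to 2.90). Called lower was cyp2aa8, with 63.2, 21.9 and 2.5 and an FC of 0.346 (CI 0.201 to 0.570). The steroid side-chain cleavage gene cyp11a1 had 0 reads in DMSO vehicle and 10 at 5 μg/L, at least 4.61-fold higher against a floor of 3 reads in that library. The study named cyp11a1 among the genes fully inhibited in DMSO vehicle compared with its blank control. The inducible chaperone hsp70 had 192, 121 and 21408 normalized counts, an FC of 0.632 (CI 0.5 to 0.794), so that it was below DMSO vehicle at 5 μg/L and far above it at 500 μg/L. No gene was called among the 42 genes of the heat shock list, 33 genes of the unfolded protein and integrated stress response, 30 p53 response genes or 74 oxidative phosphorylation genes, and their median log2 FCs were -0.02, -0.07, 0.09 and 0.00. A further inducible heat shock entry outside the list, LOC798846 (RefSeq hspa1b), was called lower with 84 (DMSO vehicle), 22 (5 μg/L) and 1296 (500 μg/L) reads and an FC of 0.362 (CI 0.216 to 0.585). The endoplasmic reticulum chaperone hspa5 had 3092, 1925 and 7618 normalized counts and an FC of 0.623 (CI 0.588 to 0.659). The immediate early gene fos had 847, 450 and 5477, an FC of 0.532. Of the 45 genes of its list 32 were below DMSO vehicle, with 1 called lower (2.22%, against 1.97% of all genes). The stress sensor sesn2 had an FC of 1.08 (CI 0.836 to 1.40). The genes cyp1a, cyp2x6, cyp2aa9, cyp11a1 and LOC798846 were named after their values were seen.

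BDE47 resembles thyroid hormones in structure. The thyroid axis had no called gene among 25, with 11 above and 14 below DMSO vehicle and a median log2 FC of -0.01. Over all genes 2.92% were called, a share at which a list of this size can hold no call. The receptors thraa, thrab and thrb had FCs of 1.05 (CI 0.886 to 1.24), 0.832 (CI 0.700 to 0.987) and 0.878 (CI 0.786 to 0.979). The plasma carrier ttr had 3911 (DMSO vehicle), 3832 (5 μg/L) and 1978 (500 μg/L) normalized counts, an FC of 0.98 (CI 0.938 to 1.02). The deiodinases dio1 and dio2, which remove iodine from the hormone, had 0.925 (CI 0.784 to 1.09) and 1.15 (CI 0.686 to 1.92). Among the receptors, ttr and the deiodinases, all but thrab and thrb had a CI that included 1. Outside the list, LOC564060 (RefSeq serpina7), the serpin named for the thyroxine-binding globulin of mammals, was called lower. It had 1141 (DMSO vehicle), 337 (5 μg/L) and 1966 (500 μg/L) normalized counts and an FC of 0.295 (CI 0.260 to 0.334). The glycoprotein fetub of the liver had 96735, 89780 and 24376 normalized counts and an FC of 0.928, ch25h, a sterol hydroxylase, had 34, 21.9 and 166 and an FC of 0.643 (CI 0.358 to 1.12), and LOC799791, an htra2-like protease, had 15, 12 and 45.0 and an FC of 0.801 (CI 0.344 to 1.77). Each of these 3 genes stood apart from DMSO vehicle mainly at 500 μg/L. The appetite hormone gene lepb, leptin b, had 10 (DMSO vehicle), 0 (5 μg/L) and 313 (500 μg/L) reads and was under the limit of abundance.

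Of 53 lists 6 had a median log2 FC of -0.2 or lower, namely complement, intelectins and acute phase, neutrophil and macrophage, DNA replication and cell division, brush border, and collagen genes. A median of 0.2 or higher was seen for 5 lists, namely vitellogenin and estrogen response, cathepsin, olfactory receptor, pigment cell and cartilage genes. The first and the third of these were small or low in counts. Only 7 of the 19 vitellogenin and estrogen response genes reached the limit of abundance, and their median of 0.39 included esr1, an estrogen receptor, with 21 and 31 reads and an FC of 2.04 (CI 1.14 to 3.74). Without the limit the median was -0.16. Of 141 olfactory receptor genes 40 reached the limit, 3 were called higher and 1 lower, and their median was 0.27. Among all genes 0.951% were called higher and 1.97% lower. No olfactory receptor gene had 50 normalized counts, and of all genes with 10 to 50 the shares were 5.53% and 9.65%. Among the higher calls, or125-8 had 8 reads in DMSO vehicle, under the minimum there, and 18 at 5 μg/L. The lower call, ora3, was under the minimum at 5 μg/L. The limit fixed the direction of both. Synaptic and neuronal genes had 44 of 63 above DMSO vehicle, no call and a median of 0.13. The neuron marker elavl3 was on the other side, with 1436 (DMSO vehicle), 1198 (5 μg/L) and 891 (500 μg/L) normalized counts and an FC of 0.834 (CI 0.773 to 0.900). The genes esr1, or125-8 and ora3 were named after their values were seen.

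**Figure D5:**
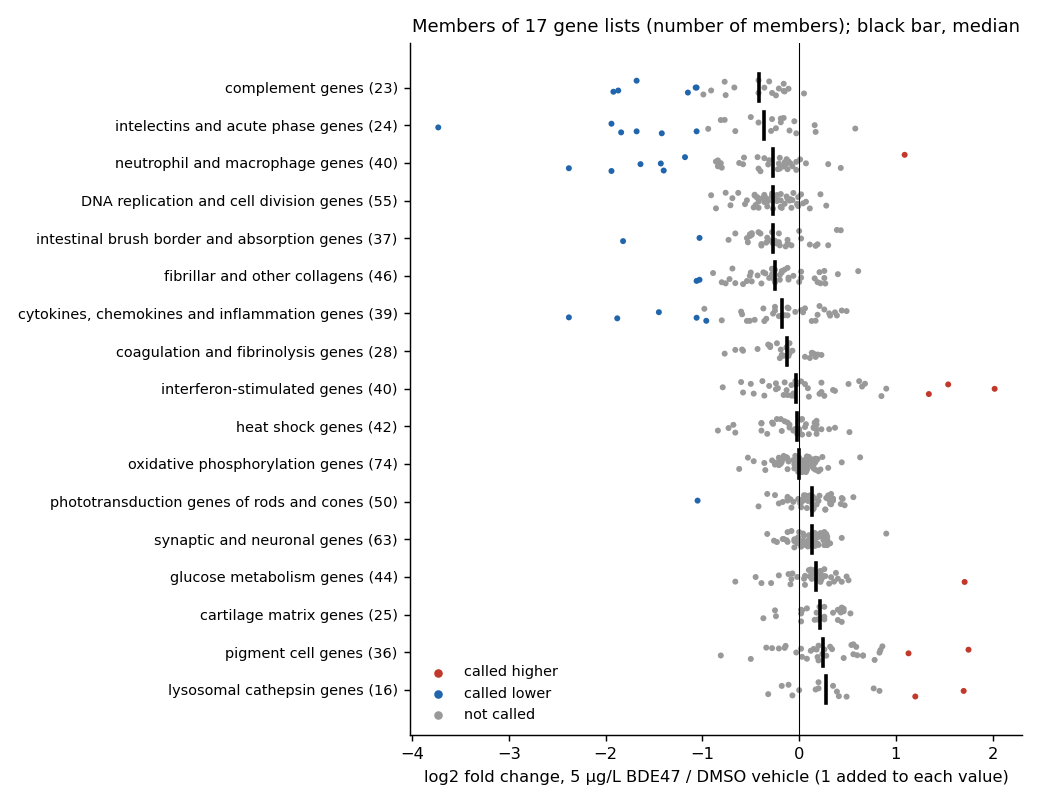
Log2 FC (x axis, 1 added to each value) of the genes in 17 lists (y axis, number of genes in parentheses), each point 1 gene, red called higher, blue called lower, grey not called, with a black bar at the median. Medians ran from -0.42 for complement genes to 0.28 for cathepsin genes, and points of the immune lists reached the lowest values, down to itln3.

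Calls without any read in one library concerned 6 genes. Each passed the minimum through the other library alone, so the limit fixed its direction. Besides cyp11a1, LOC799358 had 0 reads in DMSO vehicle and 10 at 5 μg/L. The pheromone-type receptor ora3 had 21 reads in DMSO vehicle and 0 at 5 μg/L and at 500 μg/L, at least 5.06-fold lower at 5 μg/L against a floor of 3 reads. The interleukin-6 family cytokine m17 had 13, 0 and 13 reads, 3.13-fold lower at 5 μg/L against the same floor (CI of the FC 0 to 0.454). LOC100002252 and LOC100005602 had 16 and 15 reads in DMSO vehicle and 0 at 5 μg/L. Some entries had equal numbers of reads. In 14 groups, 29 called entries had reads equal in all 3 libraries to those of another entry, and with each such group counted once 501 genes were called. At these low counts unrelated entries can be equal by coincidence, as tlr2 and the receptor entry LOC794987 were with 28, 10 and 16 reads. LOC100333278, LOC100333326 and provisionalck739236 form another near-identical set, with about the same reads and an FC of 0.437 for LOC100333278 on 1964 and 621 reads. All genes in this paragraph were named after their values were seen. The other genes with the largest FC among those with at least 100 normalized counts had no role assigned here, namely LOC100535167 at 2.33 (137, 319 and 66.2 normalized counts), LOC100536577 at 2.27, LOC563199 at 2.17, LOC795145 at 2.11 and LOC100536780 at 2.08. On the lower side these were LOC100536946 at 0.299 and LOC565454 at 0.310.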

How the data were processed

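Whole zebrafish larvae were pooled per condition, and RNA selected with oligo(dT) beads was sequenced once per condition in paired ends on an Illumina HiSeq platform. The authors mapped the reads, counted them per transcript entry and scaled the counts by TMM before they deposited the table, so the deposited signal is a normalized count per entry. The submitters' processing notes name the builds Zv9 and hg19, while the counting tool, the annotation and the strand handling are not given in the sources used here. The deposited table holds annotation and 3 value columns, of which the one headed S is the study's name for DMSO vehicle, and it has no fold changes or p-values of the authors.

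A fixed step divided 100% of the values of each of the 3 libraries to within 0.00264 of a read, and the quotients were taken as reads. Of 21098 entries, 1274 were not mRNA, 11 were bare clone prefixes, and 2144 named mRNA entries had fewer than 10 normalized counts in both libraries. Depth is given in the report, and a floor of 3 reads equals 2.37 normalized counts in DMSO vehicle and 3.28 at 5 μg/L. The blank control was not analysed here. Current symbols came from a RefSeq gene table through the gene ID (16149 entries), accession (118), symbol (162) or synonym (29), and 4640 entries were not matched. That table is of another assembly than Zv9, so no coordinates were used.

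FCs were ratios of normalized counts, and log2 FCs had 1 added to each value. With 1 library per condition no test between conditions was possible, and calls rest on the FC. Alternatives were no minimum, minimums of 50 and 100 normalized counts, scaling to the total or to the median ratio, FC thresholds of 1.5 and 3, other pseudocounts (5 and 0.1), CIs that leave out 1, DEGseq's MARS method, Benjamini-Hochberg adjusted Fisher's exact tests, and exact tests in edgeR for which a biological coefficient of variation (BCV) had to be assumed. These tests compare 2 libraries, not conditions. On the recovered reads edgeR called 5 genes at a BCV of 0.2 and 0 at 0.4 after adjustment, with 273 and 45 past the same FC threshold at an unadjusted p under 0.05. The minimum of 100 and the count with equal entries taken once were chosen after seeing the data.

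The genes compared and the 53 gene lists were chosen with earlier results of these data known. Lists were described by counts and medians, with no test. Entries that a list pattern caught by name only were removed by gene identity (a ceramide transfer gene, thrombopoietin, thrap3a, cleavage stimulation factors, cystatins, olfactomedins, emc8 and psmc3ip). Genes were named by a rule: the 12 largest and 12 smallest FCs with at least 100 normalized counts, up to 3 in each direction per list with at least 50, the 10 most abundant, and genes the study names for vision, bone, thyroid and RT-qPCR. Organ markers were listed separately. Computations used Python 3.11.15 (numpy 2.4.6, pandas 2.3.3, scipy 1.17.1, matplotlib 3.10.9) and R 4.3.3 with edgeR 4.0.16, and the scripts were tested on simulated data. One item is not reported here.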

Additional observations from a re-analysis of the deposited data

How the results depend on the processing

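The number of calls depended on the limits more than on the scaling. Calls (higher and lower) numbered 1622 (641 and 981) without a minimum of normalized counts, 126 (26 and 100) with a minimum of 50, and 72 (16 and 56) with a minimum of 100, the last chosen after seeing the data. With FC thresholds of 1.5 and 3 they numbered 1648 (623 and 1025) and 175 (56 and 119). Fisher's exact test left 326 calls, 93 of them higher. With an assumed BCV of 0.2 edgeR's exact test left 5 calls after adjustment, LOC556575 higher and itln3, lect2l, LOC794635 and LOC795897 lower, thus 1 and 4. With a BCV of 0.4 it left 0 calls, 0 higher and 0 lower, with 45 at an unadjusted p under 0.05. The share of higher calls, 32.6%, was 30.8% with scaling to the total and 20.6% with the minimum of 50. The median log2 FC of all genes was 0.01 with that minimum, -0.01 with scaling to the total and 0.00 with scaling to the median. Of 43 called genes named by rule and compared, 2 lost the call with 5 added to both values, rxrab and LOC100536780, and none reversed under the scalings or that addition. Of 24 lists with a median of at least 0.1 in size, 1 changed sign, the vitellogenin and estrogen response list without a minimum (-0.16), and no olfactory receptor gene had 50 normalized counts. No paired analysis was possible because each condition had 1 library. Genes with few reads have wide CIs, and spread between pools of larvae cannot be estimated from these libraries.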

Other observations

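Several multigene families that the gene lists did not cover can be described through the human match given in the table for each zebrafish entry. Of 140 entries matched to NLRC3, a family of cytoplasmic sensors that is expanded in fish, 65 were above and 75 below DMSO vehicle at 5 μg/L, 1 was called higher and none lower, and the median log2 FC was -0.03. Of 124 entries matched to the kinase PIM3, 36 passed the minimum and had 24 below DMSO vehicle, 1 called higher and a median of -0.25, while the summed normalized counts were 2340 and 2309 in DMSO vehicle and at 5 μg/L. Of 45 entries matched to RBBP6 24 passed, and 22 of these were below DMSO vehicle with none called and a median of -0.32. The 35 of 39 zinc finger entries matched to ZNF180 that passed lay on the other side, with 29 above DMSO vehicle, 1 called lower and a median of 0.31. The GTPase family matched to GIMAP7 was balanced, with 16 of its 32 entries that passed (45 in the table) on each side and 2 called higher, and so were 42 of 53 entries matched to TRIM16, with 21 on each side and none called. The entries called higher in the NLRC3, PIM3 and GIMAP7 families were all under the minimum in DMSO vehicle, so the limit fixed their direction. Over all genes 0.951% were called higher and 1.97% lower. These families have near-identical members, so the division of reads among them is uncertain.

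Further families were chosen after their values were seen. Their calls stand beside 0.951% called higher and 1.97% called lower over all genes. Of 12 entries matched to MFAP4, mfap4 itself among them, 11 passed the minimum and had 10 below DMSO vehicle and 2 called lower, with summed normalized counts of 2811 (DMSO vehicle), 1406 (5 μg/L) and 5358 (500 μg/L). The 14 of 16 entries that passed among those matched to GP2, a zymogen granule and mucosal glycoprotein in mammals, were all below DMSO vehicle, 2 of them called, with sums of 1654, 1184 and 1495 in the same order. On the higher side 8 of 10 entries (11 in the table) matched to the antigen-presenting molecule MR1 were above DMSO vehicle and 3 were called, with sums of 454, 505 and 485. These calls had 8 and 12, 17 and 26, and 33 and 54 reads, and the first had a CI of 0.780 to 5.85. That first entry was under the minimum in DMSO vehicle, so the limit fixed its direction. Of entries matched to the mannose receptor MRC1, 6 of 7 (38 in the table) were above with 1 called, with sums of 1529, 2221 and 1330. That call had 5 reads in DMSO vehicle, under the minimum there, and 13 at 5 μg/L, so the limit fixed its direction.

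Of the 348 genes called lower at 5 μg/L, 26 (7.47%) had an FC of at least 2 at 500 μg/L, il1b and LOC565454 among them, compared with 6.75% of all 17670 genes. Both comparisons share the DMSO vehicle library.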
